A study of Rattus norvegicus with 38 samples.

Results

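Genes that cells switch on in response to interferon were measured in rejecting and accepted rat hearts and in the blood of recipients. The list holds 47 genes, taken by name from knowledge of the pathway and grouped by role. A probeset annotated to 1 gene of the list, under its current or a former symbol, was found for 30 of them among the 10411 genes of the heart arrays (32 probesets) and for 42 among the 14217 genes of the arrays used for peripheral blood mononuclear cells (PBMC, 54 probesets). Oas1k, Oas2, Xaf1, Gbp1 and Gbp5 had no such probeset on either array. Ddx58, Ifih1, Dhx58, Ifit2, Cmpk2, Isg15, Trim25, Igtp, Irgm, Ifi44, Ifi44l and Nmi were measured in PBMC but had no probeset of their own in heart.

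Hearts of Dark Agouti (DA) rats were transplanted into the abdomen of Brown Norway (BN) rats, which reject them (allografts), or of DA rats, which accept them (isografts), and all recipients were studied on post-transplant day 6. Heart RNA was hybridised to 18 RAE230A arrays, 1 per heart, from 5 allografts and the 5 native hearts of the same BN recipients and from 4 isografts and the 4 native hearts of the same DA recipients. PBMC, isolated on a density gradient, were hybridised to 20 RAE230 2.0 arrays, from 5 BN allograft recipients, 9 DA isograft recipients, and 3 BN and 3 DA rats that received no transplant. Every graft is of DA origin, so the rejection effect (allografts against isografts) compares hearts of 1 strain in different hosts, while leukocytes that enter an allograft come from a BN rat. In native hearts and in recipient PBMC, BN rats are those with an allograft and DA rats those with an isograft, so that strain and kind of graft cannot be told apart there, and PBMC of untransplanted rats were processed in a separate batch from those of recipients. Levels below are signals divided by the median signal of their array and are written as array medians. In limma a gene passed when its p, adjusted over all probesets after Benjamini and Hochberg, was 0.10 or lower. It was called differentially expressed when its change was also at least 3-fold and, in 1 of the groups compared, 50% or more of the samples reached the median of their array. Each gene is given by its brightest probeset.

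Interferons are secreted proteins that bind receptors on the cell surface. Type I interferons (alpha and beta) act through a complex that holds Stat2 and Irf9 and binds interferon-stimulated response elements, whereas interferon gamma, a product of T cells and natural killer cells, acts mainly through factors that bind gamma-activated sites and through the factor Irf1. The genes switched on include sensors of viral nucleic acid, proteins that block viral entry, translation and replication, the ubiquitin-like modifier Isg15 with its enzymes, and GTPases that act on vacuoles holding pathogens, and in transplanted organs such a response is a well-known companion of T cell infiltration.

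Promoters are shown for 4 genes on which the results turn, the pair called in rejecting hearts that holds an interferon-response motif and a pair called in opposite directions between the strains in untransplanted blood. They are the 150 bases before the transcription start in RefSeq, build GRCr8, written 5′ to 3′ on the strand of the gene, with capitals for matches on either strand to the motif searched, GAAA followed by any 2 bases and a further GAAA, the core of an interferon-stimulated response element.
Gbp2, chr2:234005577-234005726, plus strand: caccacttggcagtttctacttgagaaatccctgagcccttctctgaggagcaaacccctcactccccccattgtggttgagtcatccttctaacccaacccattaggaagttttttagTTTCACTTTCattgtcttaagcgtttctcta
Lgals3bp, chr10:104127849-104127998, minus strand: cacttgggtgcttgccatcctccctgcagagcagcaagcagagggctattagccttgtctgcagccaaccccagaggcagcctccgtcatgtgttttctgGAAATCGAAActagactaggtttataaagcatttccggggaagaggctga
Ifi27, chr6:128355162-128355311, plus strand: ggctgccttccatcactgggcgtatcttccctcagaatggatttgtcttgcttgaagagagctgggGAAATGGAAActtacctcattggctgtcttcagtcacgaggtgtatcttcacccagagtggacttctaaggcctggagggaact
Oas1b, chr12:41395853-41396002, minus strand: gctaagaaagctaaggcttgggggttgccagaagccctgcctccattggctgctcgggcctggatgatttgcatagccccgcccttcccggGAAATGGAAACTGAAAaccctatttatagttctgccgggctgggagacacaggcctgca
In Gbp2 the motif was read on the opposite strand, and in Oas1b a pair of overlapping matches forms a single capital run. A window of 300 bases (250 before and 50 after the start) was found for 36 of the 47 genes, and 25 of these (69.4%) held this motif, which stood in 3.92% of all 33469 windows. TTCNNNGAA, searched on both strands as the core of a gamma-activated site, stood in 12 of the 36 (33.3%) and in 8.87% of all windows. Among the 5 genes called in rejecting hearts, Gbp2 and Lgals3bp held the first motif, while Samhd1, Irf1 and Irf8 held the second and not the first. These matches describe letters in the window and no binding was measured. In these shares a listed gene counted when any of its windows held the motif, whereas all windows were counted singly, so the measures are not quite alike.

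The labelled tissues were checked against markers. Heart muscle markers summed to between 453 and 972 array medians in native hearts and isografts and to between 93 and 243 in allografts, and in PBMC all 7 measured heart muscle markers lay below the array median in every group. Leukocyte markers (6 genes) summed to between 70.3 and 123 array medians in allografts against between 15.8 and 21.3 in isografts, between 12.5 and 13.6 in native BN hearts and between 9.88 and 11.5 in native DA hearts. The array medians themselves were signals of 38.3 to 50.8 in heart and of 20.2 to 36.8 in PBMC. In PBMC, allograft recipient 3 had the highest level of its group for 34 of the 42 genes, and isograft recipient 17 the lowest of its group for 30, so counts are also given without them.

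In rejecting hearts most measured interferon-induced genes were higher, among them Gbp2, Irf1 and Samhd1, while Ifi27, Ifit1, Oas1a and Mx2 did not pass. Of the 30 genes, 20 (66.7%) were higher in allografts than in isografts, 1 (3.33%) was lower and 9 did not pass. Among all genes, 22.5% were higher and 23.2% lower in the same comparison. The median difference over the 30 genes was 0.61 on the log2 scale against 0.02 over all genes, and single genes ran from -0.65 to 3.06. Called as differentially expressed were 5 genes (16.7%, against 4.37% of all genes called higher), namely Samhd1, Gbp2, Irf1, Irf8 and Lgals3bp. Allograft 3 had the highest level of the 5 allografts for 20 of the 30 genes, and without it 15 were higher and Rsad2, the lower gene, did not pass. Over the same comparison all 6 leukocyte markers, all 7 T cell markers and all 4 measured monocyte and macrophage markers were higher and all 7 heart muscle markers lower. Their part in the result was not tested, and in bulk tissue fewer cells of a type cannot be told apart from less RNA per cell.

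Among the transcription factors of the response, Irf1, an early target of interferon gamma, had signals of 22.5, 13.4, 10.1, 10.3 and 14.6 array medians in the 5 allografts and of 3.75, 3.42, 2.79 and 3.18 in the 4 isografts. Every allograft lay above every isograft and the difference was 4.15-fold (log2 2.05, SE 0.23, adjusted p = 2.59e-06). Irf8, a factor of monocytes, dendritic cells and B cells, reached 7.35, 4.7, 3.35, 5.21 and 3.8 in allografts and 1.31, 1.29, 1.25 and 1.59 in isografts, a 3.47-fold difference without overlap (SE 0.25 on the log2 scale, adjusted p = 2.92e-05). Stat2, the partner of Irf9, ran from 2.54 to 5.45 in allografts and from 1.64 to 2.74 in isografts, so the groups met (log2 0.84, SE 0.20, adjusted p = 0.00261). Irf7, which amplifies the type I response, had the smallest passing difference of the factors (log2 0.55, SE 0.23, adjusted p = 0.0689), and Irf9 did not pass (log2 0.50, adjusted p = 0.102). Irf7 did not pass without 5 single arrays in turn, with adjusted p between 0.104 and 0.188. Zbp1, a sensor of Z-form nucleic acid and the only sensor measured in heart, was higher by 1.40 (SE 0.28, adjusted p = 0.000763).

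The antiviral effectors were higher or did not pass, apart from Rsad2. Of 15 measured, 7 were higher, 1 was lower and 7 did not pass, beside 22.5% of all genes higher and 23.2% lower. Samhd1, which breaks down deoxynucleotides and is abundant in myeloid cells, had 2.2, 1.22, 1.17, 1.26 and 1.41 array medians in allografts and 0.0873, 0.116, 0.417 and 0.196 in isografts. Isografts thus lay below the array median and allografts above it, and the difference was 8.32-fold with a wide error (log2 3.06, SE 0.51, adjusted p = 0.000148). As the isograft signals lay near background, its size depended on how low signals were treated, and with 0.25 array medians added before the log it was 1.93 and passed, below Gbp2 in size. Ifit3, which binds viral RNA together with Ifit1, had 1.91, 2.88, 2.91, 2.75 and 2.27 in allografts and 0.895, 1.06, 0.88 and 0.886 in isografts (log2 1.44, SE 0.18, adjusted p = 6.25e-06). Ifitm1, which hinders the entry of viruses at the cell membrane, had 52.7, 42.1, 38.2, 45.5 and 43.3 against 16.2, 15.2, 21.3 and 14.1 (log2 1.42, SE 0.17, adjusted p = 4.26e-06). Neither gene overlapped between the groups.

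The other effectors that passed differed less. Bst2, which tethers budding virions, Oasl, the GTPase Mx1 and Ifitm2 were higher by 0.33 to 0.62 on the log2 scale. Ifit1, Oas1a, Oas1b, Ifitm3, Eif2ak2, Isg20 and Mx2 lay between -0.51 and 0.25 and did not pass. Rsad2 (viperin), an enzyme that makes a chain-terminating nucleotide, was the single gene that was lower. Its signal was 1.28, 1.66, 1.59, 1.86 and 1.95 array medians in allografts and 2.48, 1.55, 3.85 and 3.05 in isografts, with isograft 11 among the allografts (log2 -0.65, SE 0.25, adjusted p = 0.0551). It did not pass without allograft 3 (adjusted p = 0.122), isograft 12 (0.192) or isograft 13 (0.141). A dimmer probeset of the antiviral GTPase Mx2, which is singled out here after its values were seen, had -1.40 on the log2 scale (SE 0.44, adjusted p = 0.0185), while the brighter one had -0.51 (SE 0.36, adjusted p = 0.316).

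The only GTPase of the guanylate-binding or immunity-related families with a probeset of its own in heart was Gbp2, a classical interferon gamma target whose promoter is shown above. It had 23.3, 17.8, 9.46, 15.7 and 17.8 array medians in allografts and 1.99, 2.16, 2.15 and 1.87 in isografts, a 7.92-fold difference with no overlap (log2 2.99, SE 0.25, adjusted p = 1.27e-07). A probeset shared by Igtpl1, Irgm2 and Igtp, not counted among the 30, was higher by 1.55 (SE 0.25, adjusted p = 8.83e-05). Lgals3bp, a secreted glycoprotein that binds galectins, had 18.7, 14.9, 12.8, 13.8 and 11.3 in allografts and 3.76, 4.47, 5.19 and 4.27 in isografts (3.21-fold, log2 1.68, SE 0.18, adjusted p = 1.33e-06). The groups of both genes stood well apart. All 4 measured genes listed under the ubiquitin-like system (Usp18, Parp9, Dtx3l and Parp14) were higher. Among them were Parp9 (log2 1.44, SE 0.19) and its partner, the ubiquitin ligase Dtx3l (log2 1.01, SE 0.26). Isg15 itself had no probeset in heart. Its protease Usp18 had 0.54 (adjusted p = 0.0814 in limma) and did not pass when any of 5 single arrays was left out. Ifi35 and Sp110 were each higher by 1.30 (SE 0.19), while Ifi27, a mitochondrial protein often used as a blood marker of type I interferon, had -0.15 and did not pass.

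**Figure D1:**
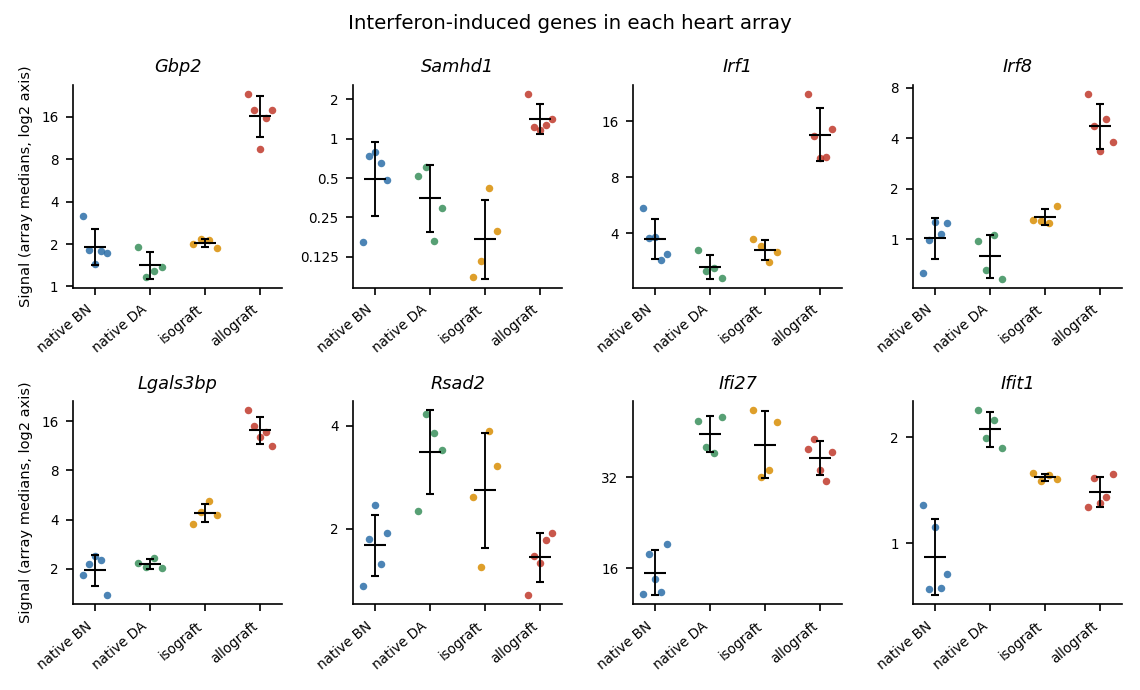
Signal in array medians (log2 axis) of 8 interferon-induced genes in each of the 18 heart arrays, 1 point per heart, with the mean of the log2 values as a bar and 1 SD as whiskers. Gbp2, Samhd1, Irf1, Irf8 and Lgals3bp stand apart in allografts, Rsad2 is lower there than in 3 of 4 isografts, and Ifi27 and Ifit1 are lower in native hearts of BN than of DA rats.

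Other genes of the interferon pathway, from lists kept apart from the 47, were set beside them. Of 17 measured targets of interferon gamma, 15 were higher in allografts in limma and 0 lower (0 also at an unadjusted p under 0.05), with a median difference of 2.01. Among all genes 22.5% were higher and 23.2% lower. Only the called targets with the largest differences are named here. They were the immunoproteasome subunits Psmb8 (log2 2.85, SE 0.24) and Psmb9 (2.32, SE 0.23) and the chemokines Cxcl9 (2.77, SE 0.27) and Cxcl10 (2.39, SE 0.34). With them stood the tryptophan-degrading enzyme Ido1 (2.64, SE 0.59), the peptide transporter Tap1 (2.25, SE 0.48) and the adhesion molecule Icam1 (2.21, SE 0.40). Of the ligands, 2 of 11 were measured and both were dim. Ifng ran from 0.326 to 0.607 array medians in allografts and from 0.012 to 0.333 in isografts (log2 1.84, SE 0.70, adjusted p = 0.0503), and Ifnb1 had -0.28. Both chains of the gamma receptor were higher, Ifngr1 by 1.10 (SE 0.14) and Ifngr2 by 0.99 (SE 0.15). Of the type I receptor, Ifnar1 was higher by 1.07 (SE 0.20) and Ifnar2 had -0.14 and did not pass. All 3 measured kinases and STATs outside the 47 (Jak2, Tyk2 and Stat3) were higher. Of 5 measured inhibitors 3 were higher and 1 was lower. Of 7 genes that induce interferon 3 were higher, including the called adaptor Sting1 (2.14, SE 0.51), and 1 was lower, Mavs, the mitochondrial adaptor of the RNA sensors (-1.15, SE 0.17).

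Native hearts, which were not rejected, gave the comparison of BN with DA recipients in an organ outside the graft. Of the 30 genes 4 (13.3%) were lower in native BN hearts and 1 (3.33%) was higher, against 1.39% and 1.32% of all genes, and 25 did not pass. The median difference was -0.03 against -0.04 over all genes. The 4 lower genes were Ifi27, Ifit1, Irf7 and Rsad2, and none of them reached 3-fold. Ifi27 had 13.2, 17.8, 14.7, 13.4 and 19.3 array medians in the 5 native BN hearts and 49.2, 40.3, 38.5 and 50.6 in the 4 native DA hearts, without overlap (log2 -1.52, SE 0.18, adjusted p = 0.000244). In the grafts, which are of DA origin, it ran from 31.1 to 42.9 in allografts and from 32.1 to 53.2 in isografts, above every native BN heart. Ifit1 had 1.28, 0.738, 1.11, 0.743 and 0.819 in native BN and 2.39, 1.99, 2.24 and 1.86 in native DA hearts (log2 -1.21, SE 0.17, adjusted p = 0.000801).

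Irf7 was lower in native BN hearts (log2 -1.01, SE 0.23, adjusted p = 0.0318), but not without native DA heart 13 (adjusted p = 0.115). Rsad2 had -0.91 (SE 0.25, adjusted p = 0.088) and did not pass when any of 7 single hearts was left out. Ifitm1 was the gene that was higher in native BN hearts (log2 0.68, SE 0.17, adjusted p = 0.0545), and it did not pass when any of 6 single hearts was left out. The dimmer Mx2 probeset had 0.357, 0.124, 0.0608, 0.21 and 0.432 array medians in native BN hearts and 0.998, 0.866, 1.21 and 0.71 in native DA hearts (log2 -2.29, SE 0.44, adjusted p = 0.0123). Of the 17 interferon gamma targets 0 passed here in limma (2 higher and 0 lower at an unadjusted p under 0.05), and of 4 measured receptors Ifnar2 was lower (log2 -0.83, adjusted p = 0.0851). T cell markers summed to between 3.2 and 4.16 array medians in native BN and between 2.84 and 4.3 in native DA hearts.

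**Figure D2:**
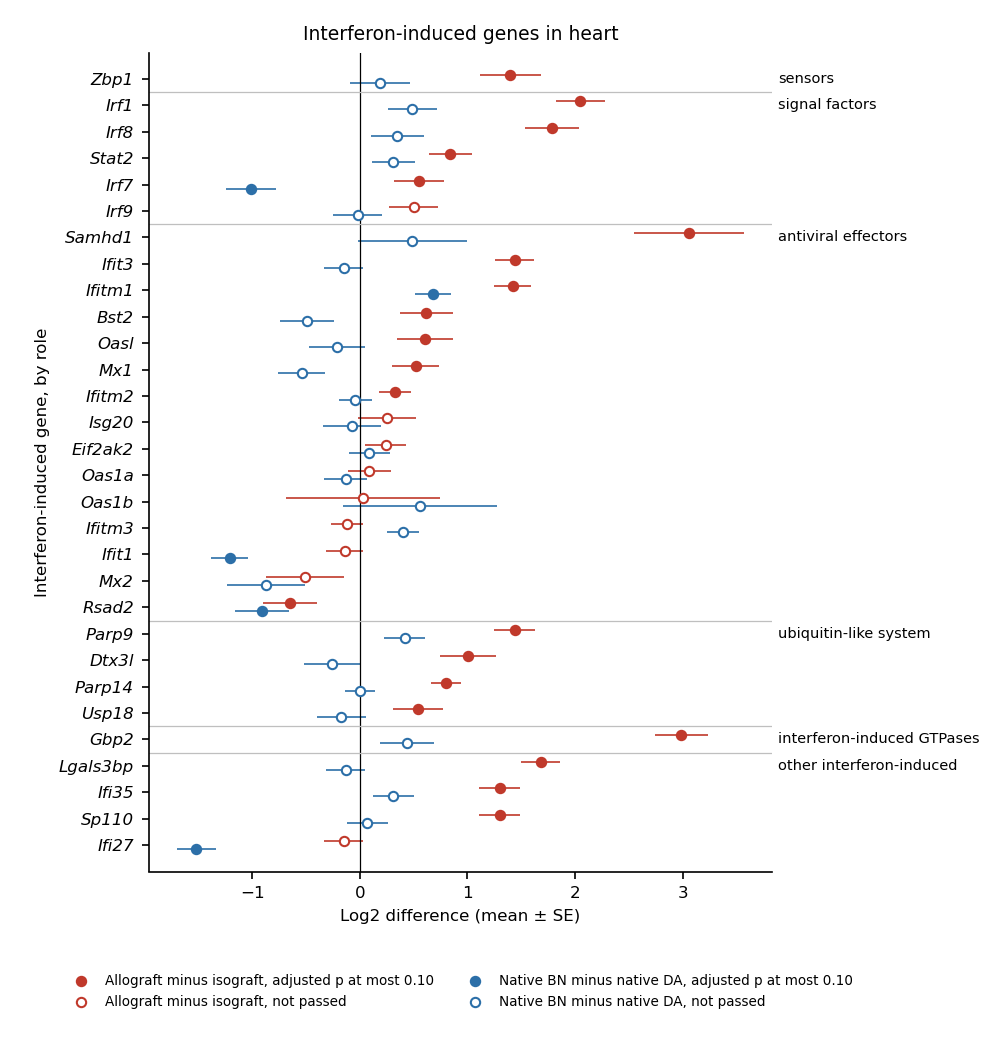
Log2 difference (x axis, with its SE as a line) of the 30 interferon-induced genes measured in heart, ordered by role, for allografts minus isografts (red) and native BN minus native DA hearts (blue), with filled points at an adjusted p of at most 0.10. Red points lie to the right of 0 for most genes, and blue points are filled for Ifi27, Ifit1, Irf7, Rsad2 and Ifitm1.

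Isografts differed from the native hearts of their own DA recipients in few of these genes. In this surgical effect 4 genes (13.3%) were higher, 0 were lower in limma (2 at an unadjusted p under 0.05, and 1 at the adjusted threshold in an analysis of variance without moderation) and 26 did not pass. Of all genes 7.57% were higher and 7.12% lower, and the medians were 0.15 and -0.08. The median of the 30 genes was 0.03 without native DA heart 12 and 0.24 without native DA heart 11. The higher genes were Lgals3bp (log2 1.04, SE 0.19, adjusted p = 0.0041), Ifitm1 (0.89, SE 0.18, adjusted p = 0.00708), Irf8 (0.77, SE 0.27, adjusted p = 0.0897) and Parp9 (0.72, SE 0.20, adjusted p = 0.0386). Irf8 did not pass when any of 7 single hearts was left out, and Parp9 did not pass without native DA heart 9 or 13. Gbp2 and Irf1, among the most changed genes in allografts, had 0.53 and 0.30 and did not pass. Markers of monocytes and macrophages summed to between 39.5 and 67.7 array medians in isografts and between 16.4 and 22.3 in native DA hearts, whereas T cell markers summed to between 2.91 and 3.67 and between 2.84 and 4.3. The part of these cells in the result was not tested.

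The difference between allografts and isografts was then set against the difference between the native hearts of the same recipients, in 1 test for each gene. In 18 genes (60%) the graft difference was higher than the native difference, in 1 (3.33%) it was lower and 11 did not pass, against 16.4% and 16.7% of all genes, with a median of 1.00 against 0.05. Called were 4 (13.3%, against 4.13% of all genes called higher), Samhd1 (log2 2.56, SE 0.72, and 1.61 with 0.25 array medians added), Gbp2 (2.55, SE 0.35), Lgals3bp (1.81, SE 0.25) and Ifit3 (1.59, SE 0.25, 3.00-fold). Irf7, Ifi27 and Ifit1 were among the 18, at 1.56 (SE 0.32), 1.37 (SE 0.26) and 1.07 (SE 0.23). For Ifi27 and Ifit1 the graft difference itself was -0.15 and -0.14, so the native hearts held the larger share. They did so for Irf7 too, with 0.55 in grafts and -1.01 in native hearts, and for Mx1 the parts were about equal, with 0.52 and -0.54. Ifitm3, which blocks viruses at the endosome, was the gene that was lower (-0.52, SE 0.21, adjusted p = 0.0953), and it did not pass when any of 13 single arrays was left out. Of the 17 interferon gamma targets, 12 were higher in the same test.

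In PBMC of rats that received no transplant, many interferon-induced genes were lower in BN than in DA rats, and among the antiviral effectors most were. Of 42 measured genes 21 (50%) were lower, 1 (2.38%) was higher and 20 did not pass, against 5.47% and 4.4% of all genes. The median was -0.84 against -0.11 over all genes, single genes ran from -4.65 to 3.44, and 37 of the 42 differences were negative. Called lower were 9 genes (21.4%, against 0.513% of all genes), and called higher was 1, Oas1b (2.38%, against 0.499%). With signals used as deposited, without division by the array median, the median of all probesets moved from -0.08 to 0.08. The median of the 42 genes then moved from -0.84 to -0.67. It was -0.64 with quantile normalization and -0.74 without untransplanted DA rat 3. Untransplanted DA rat 2 had the lowest level of its group for 33 of the 42 genes, and without it 22 were lower.

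The antiviral effectors held most of the called genes, with 13 of 17 lower. Ifit3 had 1.23, 1.52 and 1.8 array medians in the 3 BN rats and 17.7, 9.04 and 15.3 in the 3 DA rats (9.02-fold lower, log2 -3.17, SE 0.38, adjusted p = 4.5e-05). Ifit1 had 0.592, 0.389 and 0.375 against 3.81, 2.44 and 2.91 (log2 -2.76, SE 0.42, adjusted p = 0.000485). Ifit2 had 4.99, 5.38 and 5.49 against 20.3, 10.5 and 19 (log2 -1.59, SE 0.30, adjusted p = 0.00362). All 3 members of this RNA-binding family were thus lower in each BN rat than in each DA rat. Mx2 had 1.82, 2.35 and 3.42 in BN and 11.5, 7.48 and 10.8 in DA rats. Its other probeset had 0.226, 0.427 and 0.217 against 22.4, 13.8 and 19.5. That probeset was dimmer as a mean over all PBMC arrays, and so was not the one counted, but it was the brighter in every DA rat. Both probesets of Mx2 passed in the same direction with sizes that differed widely, and whether the probes match both strains equally was not tested.

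Oas1a and Oas1b, neighbouring copies within the family of 2-5A synthetases, which activate RNase L, went in opposite directions. Oas1a had 3.23, 3.08 and 3.3 in BN and 13.1, 8.38 and 13.2 in DA rats (log2 -1.82, SE 0.27, adjusted p = 0.000365). Oas1b, known in the mouse for resistance to flaviviruses, had 0.802, 1.53 and 1.22 in BN rats and 0.0274, 0.219 and 0.194 in DA rats (log2 3.44, SE 1.01, adjusted p = 0.0548). Its DA signals lay far below the array median, its difference was 1.86 with 0.25 array medians added before the log, and it did not pass without BN rat 2 (adjusted p = 0.147), BN rat 3 (0.141) or DA rat 1 (0.234). Copies this alike may share probes, which was not tested. Ifitm3 had 0.458, 0.747 and 0.468 against 2.69, 1.59 and 1.89 (log2 -1.89, SE 0.28, adjusted p = 0.000351). Below 3-fold but passing were Cmpk2, Isg20, Mx1, Oasl, Eif2ak2 (the kinase PKR), Ifitm2 and Ifitm1, between -1.29 and -0.63.

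Outside the effectors, Ifi27 had the largest difference of the 42, with 7.32, 7.63 and 7.39 array medians in BN and 205, 185 and 174 in DA rats (25.2-fold lower, log2 -4.65, SE 0.24, adjusted p = 6.12e-10). Whether its probes match both strains equally was not tested. The ubiquitin-like modifier Isg15 had 4.67, 4.85 and 6.64 against 22.6, 14.4 and 22.7 (log2 -1.87, SE 0.27, adjusted p = 0.000318). Its specific protease Usp18 was also lower (log2 -1.57, SE 0.28), while the other 4 genes of the ubiquitin-like system did not pass and Parp9 had 0.00. Irf7 had 13.8, 14.4 and 17 in BN and 65.3, 39.4 and 50.5 in DA rats (log2 -1.75, SE 0.24, adjusted p = 0.000152), the only transcription factor of the 5 to pass. Irf1 (-0.17), Irf8 (0.61), Stat2 (0.32) and Irf9 (-0.37) did not. The sensors Dhx58 (-1.41, SE 0.31) and Zbp1 (-1.34, SE 0.23) were lower, as were Lgals3bp (-1.37, SE 0.28) and Ifi44 (-1.11, SE 0.24), and of the 3 GTPases 0 passed in limma, nor did any at an unadjusted p under 0.05.

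**Figure D3:**
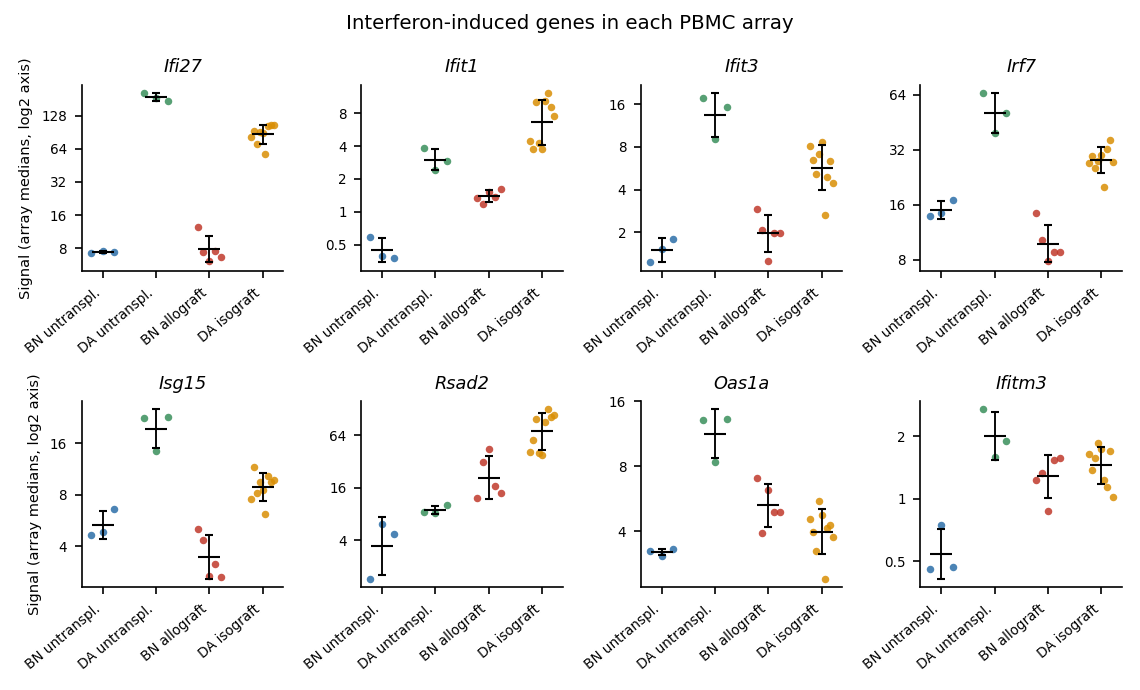
Signal in array medians (log2 axis) of 8 interferon-induced genes in each of the 20 PBMC arrays, 1 point per rat, with the mean of the log2 values as a bar and 1 SD as whiskers. Ifi27, Ifit1, Irf7 and Isg15 lie lower in BN than in DA rats with and without a transplant, whereas Oas1a and Ifitm3 overlap between the recipients and not between the untransplanted strains.

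Most genes of the interferon gamma list did not pass in this blood. Of 19 measured, 3 were higher in untransplanted BN rats, Ciita (1.02, SE 0.24), Icam1 (0.96, SE 0.25) and Ifi30 (0.55, SE 0.18). B2m was lower (-0.66, SE 0.20) and 15 did not pass, beside 4.4% of all genes higher and 5.47% lower. Ifnar2 was higher by 0.78 (SE 0.20) among 6 receptors, and 0 of the 3 measured ligands and 0 of the 8 genes that induce interferon passed in limma, also at an unadjusted p under 0.05. A dimmer Ifnar2 probeset, the one that reads this gene in heart, overlapped between the strains. It had 4.73, 4.9 and 6.26 array medians in BN and 4.51, 4.59 and 5.04 in DA rats. The cell mix also differed, as T cell markers summed to between 309 and 347 array medians in BN and between 568 and 598 in DA rats. Natural killer cell markers summed to between 62.9 and 82.1 against between 127 and 135. Of 6 monocyte and macrophage markers 4 were higher in BN rats and 0 lower, with a median difference of 0.95, namely Cd68 (0.99, SE 0.26), Csf1r (0.97, SE 0.27), Cd14 (1.32, SE 0.38) and Adgre1 (0.94, SE 0.20). Their sum of between 246 and 299 in BN and between 226 and 340 in DA rats did not show this, as Lyz2, the brightest, had 148, 193 and 145 against 272, 216 and 184. Plasmacytoid dendritic cells are the main makers of type I interferon, and of 4 markers listed for them only Tcf4 and Il3ra were measured. These summed to between 16.4 and 19 in BN and between 12.5 and 14.2 in DA rats. Tcf4 was also well above the array median in every heart, so the sum does not measure these cells alone. Neither of the 2 passed (log2 0.31 and 0.43). The part of the cell mix in these differences was not tested.

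The same strains, now with a transplant, were compared as allograft recipients (BN) with isograft recipients (DA). Of the 42 genes 20 (47.6%) were lower in allograft recipients, 1 (2.38%) was higher and 21 did not pass, against 15.2% and 7.72% of all genes, with a median of -0.41 against -0.06. Called lower were 3 genes (7.14%, against 0.661% of all genes), Ifi27, Ifit1 and Rsad2. Without allograft recipient 3 the count was again 20 lower, and without isograft recipient 17 it was 21. With signals used as deposited, the median of all probesets moved from -0.03 to 0.10 and 3 genes, in place of 1, were higher. The median of the 42 genes was then -0.27, and with quantile normalization it was -0.25. Of the 21 genes lower in untransplanted BN rats 17 (81%) were also lower here, which is 85% of the 20, and over all genes the shares were 72% and 26%. Across the 42 genes the differences had a Pearson's r of 0.88 and a Spearman's rho of 0.77, as a description over genes measured on the same arrays.

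Ifi27 had 12.4, 7.39, 6.19, 7.59 and 6.73 array medians in the 5 allograft recipients and from 57.6 to 105 (median 91) in the 9 isograft recipients (11.1-fold lower, log2 -3.48, SE 0.16, adjusted p = 1.06e-10). Ifit1 had 1.35, 1.18, 1.51, 1.36 and 1.61 against 3.73 to 12.3 (median 7.49, log2 -2.25, SE 0.29, adjusted p = 3.02e-05). Neither gene overlapped between the groups. Rsad2 had 12.1, 31.7, 44.6, 16.6 and 14 against 38.4 to 127 (median 90.3, log2 -1.77, SE 0.40, adjusted p = 0.00606), where allograft recipient 5 lay within the range of isograft recipients. Among genes below 3-fold, Irf7 had 14.4, 10.3, 7.83, 8.81 and 8.81 against 20 to 36.3 (median 27.7, log2 -1.52, SE 0.16, adjusted p = 3.93e-06). Isg15 had 5.06, 4.37, 2.67, 3.15 and 2.63 against 6.13 to 11.6 (median 9.46, log2 -1.36, SE 0.19, adjusted p = 6.25e-05). Both were apart in every rat. Ifit3 had -1.53 (SE 0.26) and here the groups met, with 2.92 in allograft recipient 3 and 2.65 in isograft recipient 17. The higher gene was again Oas1b (log2 2.25, SE 0.69, adjusted p = 0.0381, and 1.04 with 0.25 array medians added), below the array median in every recipient.

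**Figure D4:**
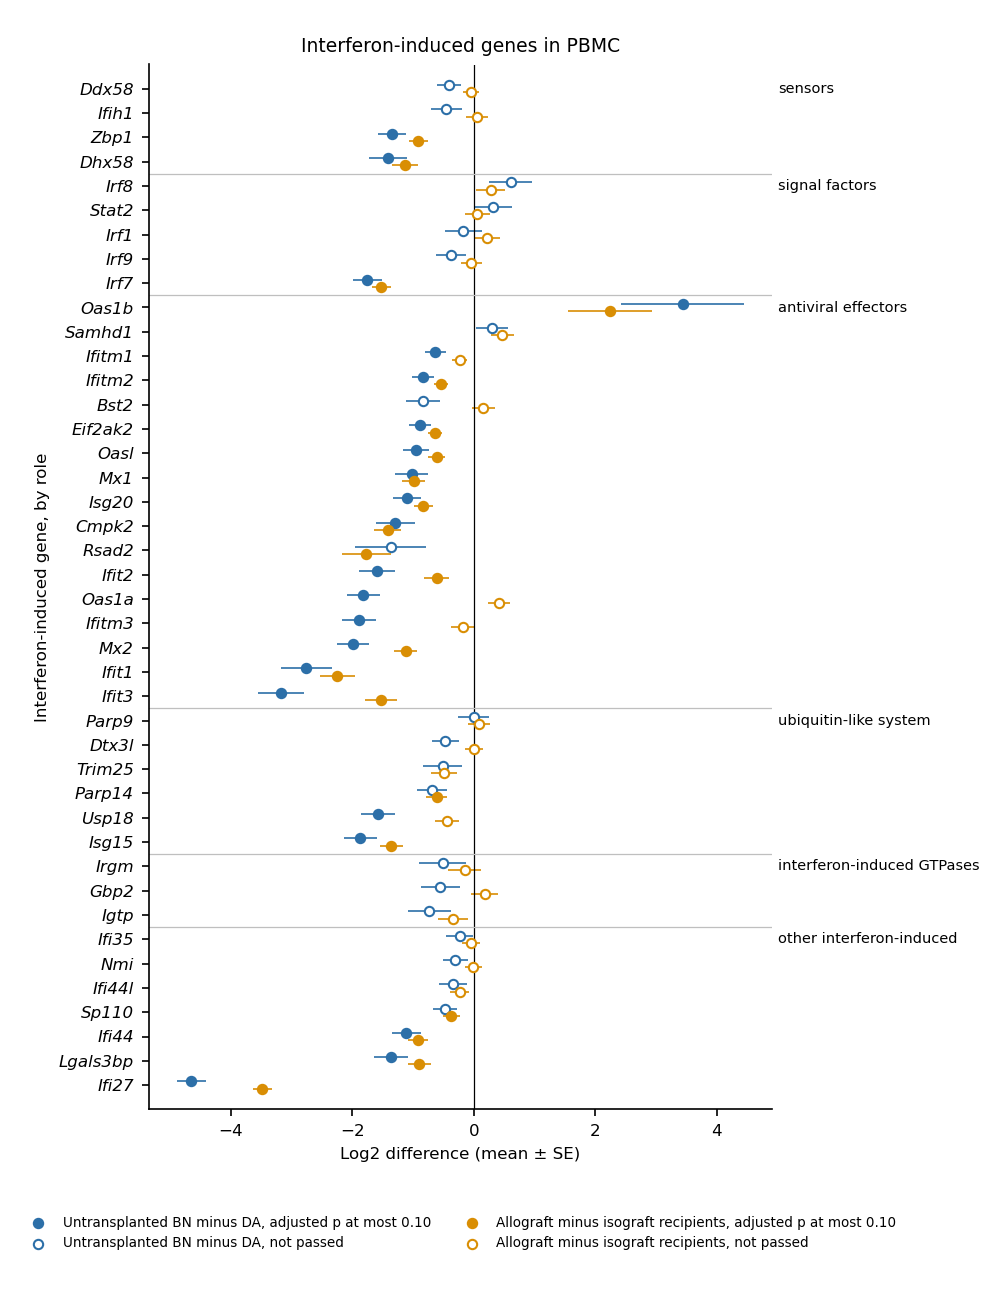
Log2 difference (x axis, with its SE as a line) of the 42 interferon-induced genes measured in PBMC, ordered by role, for untransplanted BN minus DA rats (blue) and allograft minus isograft recipients (orange), with filled points at an adjusted p of at most 0.10. Most points lie left of 0 in both comparisons (37 and 31 of 42), and Oas1b lies right of 0 in both.

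Of the 19 interferon gamma targets, 4 were higher in allograft recipients and 4 lower (median 0.17), beside 7.72% and 15.2% of all genes. The higher ones were Ciita (1.19, SE 0.17), the chemokine Cxcl9 (1.11, SE 0.23), Ifi30 (0.54, SE 0.12) and Icam1 (0.49, SE 0.17). Both chains of the gamma receptor were higher, Ifngr1 by 0.58 (SE 0.12) and Ifngr2 by 0.71 (SE 0.14), and Ifnar2 was higher by 0.67 (SE 0.14). The dimmer Ifnar2 probeset overlapped here too, with 4.79 to 7.28 array medians in allograft and 4.63 to 6.63 in isograft recipients. T cell markers summed to between 136 and 235 array medians in allograft and between 213 and 382 in isograft recipients. Neutrophil markers (3 of 5 measured) summed to between 51.9 and 204 against between 9.79 and 66.2, with 2 higher and 1 lower (log2 -2.96). Plasmacytoid dendritic cell markers (Tcf4 and Il3ra, 2 of 4 measured) summed to between 10.3 and 11.9 against between 5.9 and 8.89, and 1 was higher while 1 did not pass. Of 6 monocyte and macrophage markers 3 were higher and 1 lower, and both measured B cell markers were higher. Red cell markers (4 of 6 measured) summed to between 145 and 217 in allograft and between 207 and 452 in isograft recipients, and 3 of the 4 were lower, Alas2 (-1.54, SE 0.50), Slc4a1 (-2.19, SE 0.55) and Rhag (-3.65, SE 0.51). Platelet markers summed to between 145 and 209 against between 221 and 291, with 3 of 4 lower and 1 higher. Rsad2 and Ifit1, called lower in the same comparison, were high in the same isograft recipients as Alas2 and Slc4a1. So were Cmpk2 and Isg20, which were lower by less than 3-fold. The part of these cells was not tested.

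The difference of the PBMC effects asks whether BN rats with an allograft stood closer to, or further from, their DA counterparts than untransplanted BN rats did. For 2 genes (4.76%, against 0.176% of all genes) the difference was higher, for 0 lower in limma (0 also at an unadjusted p under 0.05, against 0.134% of all genes at the adjusted threshold), and 40 did not pass, with a median of 0.33 against 0.01. Both genes were also called (against 0.0633% of all genes). Oas1a had 7.05, 3.91, 6.21, 4.89 and 4.92 array medians in allograft recipients and from 2.4 to 5.5 (median 4.15) in isograft recipients, which overlap (log2 0.41, adjusted p = 0.158), and its difference of the effects was 2.23 (SE 0.33, adjusted p = 0.00561). Ifitm3 had 1.23, 1.33, 0.874, 1.54 and 1.57 against 1.02 to 1.86 (median 1.57), which also overlap, and its difference of the effects was 1.71 (SE 0.34, adjusted p = 0.0481). Ifitm3 did not pass without untransplanted BN rat 1 (adjusted p = 0.115), BN rat 3 (0.148) or DA rat 1 (0.141).

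Every BN recipient had more Oas1a than every untransplanted BN rat, and every DA recipient had less than every untransplanted DA rat. As these were processed in separate batches, the transplant and the batch cannot be told apart within a strain. At an unadjusted p of at most 0.01 with a ratio of at least 3, 3 of the 42 genes (7.14%, against 0.499% of all genes) had a higher difference, the other being Ifit3 (log2 1.64, SE 0.46, adjusted p = 0.238). The Mx2 probeset that was not counted, dimmer in BN and brighter in DA blood, had 0.653, 0.48, 0.359, 0.478 and 0.555 in allograft recipients. In isograft recipients it had 2.52 to 7.6 (median 6.22), and its difference of the effects was 2.58 (SE 0.43, adjusted p = 0.0176). Of the pathway genes outside the 47, 0 passed this test in limma (1 higher and 1 lower at an unadjusted p under 0.05, out of 50).

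Graft and blood were set side by side over the 30 genes measured on both arrays, which share no array. Of the 20 genes higher in allografts, 9 (45%) were among the 16 genes lower in untransplanted BN blood, which is 56.2% of those 16. Over all genes on both arrays the shares were 6.77% and 27.2%. As 16 of all 30 genes were lower in blood, 9 of 20 is no larger a share than among the 30. The 9 were Ifit3, Ifitm1, Ifitm2, Irf7, Lgals3bp, Mx1, Oasl, Usp18 and Zbp1. A further 12 genes passed in grafts alone, among them Gbp2, Samhd1, Irf1, Irf8 and Parp9, 8 in blood alone, among them Ifi27, Ifit1, Mx2, Oas1a and Ifitm3, and 1 in neither. Across the 30 genes Pearson's r between the effects was 0.31 and Spearman's rho 0.53, as a description over genes.

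Native hearts were set beside blood in the same way. Of the 4 genes lower in native BN hearts, 3 (75%, Ifi27, Ifit1 and Irf7) were lower in blood of untransplanted BN rats, which are other animals, against 17.9% of all genes lower in native BN hearts. The 3 are 18.8% of the 16 genes lower in that blood, against 4.44% over all genes. All 4, Rsad2 included, were lower in blood of allograft recipients, against 35.2% of all genes, and those recipients include the rats of the native hearts. Of all 30 genes, however, 16 were lower in untransplanted BN blood and 15 in blood of allograft recipients. With only 4 genes, these shares cannot be told apart from those of the 30. Across the 30 genes the native heart and untransplanted blood differences had a Pearson's r of 0.70 and a Spearman's rho of 0.71, again as a description. Ifi27, Ifit1, Irf7 and Rsad2 were each read by the same probeset on both arrays. Whether these probes match both strains equally was not tested.

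**Figure D5:**
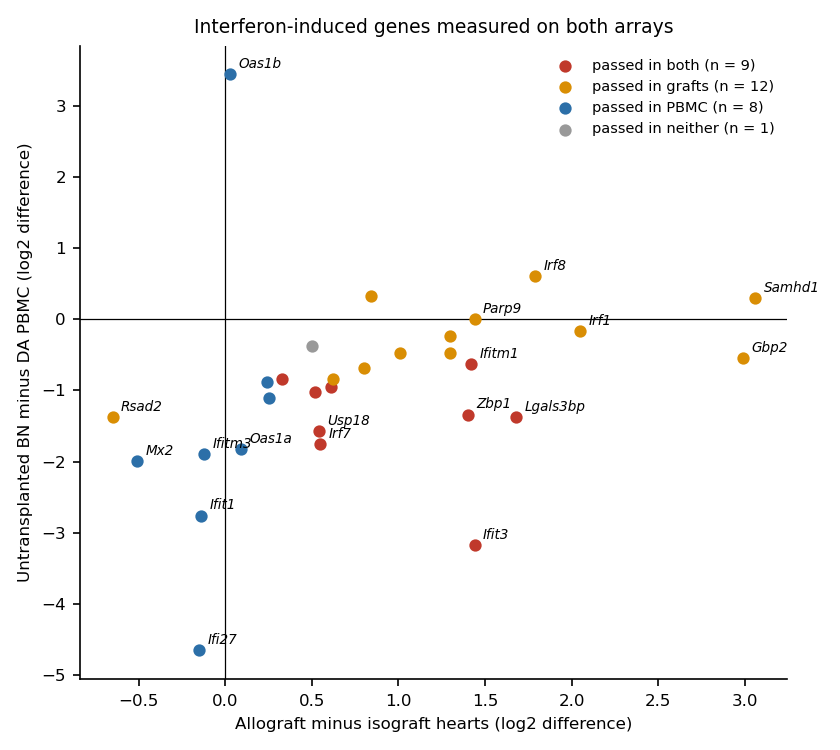
Log2 difference of the 30 interferon-induced genes measured on both arrays in grafts (allograft minus isograft, x axis) and in PBMC of untransplanted rats (BN minus DA, y axis), coloured by where each passed at an adjusted p of at most 0.10. Gbp2, Samhd1, Irf1 and Irf8 lie far right within 1 log2 unit of 0 on the y axis, Ifi27 and Ifit1 lie far down near 0 on the x axis, and Ifit3 is both far right and far down.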

How the data were processed

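Per the labels and the study's methods, the deposited values are linear intensities, 1 per probeset and array, which the authors made with MAS5 (version not stated) and scaled to a shared trimmed mean. Heart strain was taken from the methods. Log2 of the ratio of each signal to the median of its array was analysed, and 57 control probesets were left out. Each tissue was fitted in limma 3.58.1 (R 4.3.3) with a mean for each of 4 groups (lmFit and eBayes), with Benjamini-Hochberg adjustment over 15866 probesets in heart and 31042 in PBMC. The signal criterion stands in for the present calls of the methods. Shares over all genes use the brightest probeset of each gene. Tables and figures were made with Python 3.11.15 and pandas 2.3.3, and the fit was tested on simulated data.

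The 47 genes, the pathway and marker lists, and the tests were chosen with earlier results of these data known. Genes given with values per sample were those called (at most 10 per direction in the rejection effect), the gene that fell in allografts and those past the difference of the PBMC effects, and others named were chosen after their values were seen. Each array is a separate tissue sample, blood arrays are separate rats, and precision is limited by how many there are. A native and a transplanted heart of 1 number come from the same recipient, yet after removal of group means their correlation ran only from -0.045 to 0.118. Scaling, offset, test, filter, thresholds, replicate block and each left-out array were tried as alternatives.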

Additional observations from a re-analysis of the deposited data

Results flagged for a closer look

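Among 70 groups of 4 to 10 arrays checked for a sample far from the others, 2 were marked, and chance alone marks about 1 group in 20. Ifit3 was 1.06 array medians in isograft 11 while the other isografts lay between 0.88 and 0.895, a narrow range in a gene that was above 1.9 in every allograft. Oas1b was 0.239 array medians in allograft recipient 5 while the other allograft recipients lay between 0.626 and 0.8.

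Effects that differed between settings were tested in limma. In blood, the BN minus DA difference was higher with a transplant than without for Oas1a (log2 2.23, adjusted p = 0.00561) and for Ifitm3 (log2 1.71, adjusted p = 0.0481). In heart, 18 of the 30 genes had a graft difference higher than the native heart difference and 1 had a lower one.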

How the results depend on the processing

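Of 94 gene results that passed over the 7 comparisons, 72 passed under every alternative run for single genes (all but the fold criteria), 22 missed the threshold under at least 1 and 0 changed sign. In the rejection effect these were Irf7, Mx1, Oasl, Rsad2, Ifitm2, Bst2 and Usp18, all under 2-fold. A fold of at least 3 left 5 of 20 higher and 0 lower genes for rejection, 0 and 0 for native hearts, 0 higher for the surgical effect, 4 higher and 0 lower for the graft beyond the native difference, 9 lower in untransplanted PBMC and 3 lower in recipients. A fold of at least 2 left 12 higher and 0 lower for rejection, 0 higher in native hearts, 1 higher for the surgical effect, 0 lower beyond the native difference and 9 lower in recipients. An adjusted p of at most 0.05 left 0 lower for rejection, 0 higher in native hearts, 0 lower beyond the native difference and 0 higher in untransplanted PBMC. Quantile normalization gave 3 lower genes for the surgical effect, 0 lower beyond the native difference, 0 higher in untransplanted PBMC and 3 higher in recipients. Fitting only the groups compared gave 0 higher and 2 lower in native hearts and 0 higher in untransplanted PBMC, and it does not apply to the comparisons of 4 groups. The offset of 0.25 array medians gave 1 lower for the surgical effect and 2 higher in recipients, leaving out dim probesets 1 and 3, signals as deposited 3 higher in recipients, analysis of variance without moderation 1 lower for the surgical effect, and the mean over probesets 2 lower for rejection.

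Leaving out 1 array at a time gave 15 to 20 higher and 0 to 1 lower for rejection, 0 to 1 and 2 to 4 for native hearts, 2 to 4 and 0 to 1 for the surgical effect, 18 to 20 and 0 to 1 beyond the native difference, 0 to 1 and 19 to 22 in untransplanted PBMC, 1 to 2 and 18 to 21 in recipients, and 1 to 2 and 0 for the difference of the PBMC effects. With the recipient as a random block (replicate block, estimated correlation 0.0575) the counts were 20 and 1 for rejection, 1 and 4 for native hearts, 4 and 0 for the surgical effect and 18 and 1 beyond the native difference. With the recipient as a fixed block they were 3 and 0 for the surgical effect and 18 and 0 beyond the native difference. A block for the numbers of the untransplanted rats, which only name animals, gave 1 and 21 in untransplanted PBMC and 2 and 0 for the difference. Signals near background limit Oas1b, Samhd1 in isografts, Ifng, and the dimmer Mx2 probeset in native BN hearts, allografts and BN blood. In DA blood that Mx2 probeset was the brighter of the pair.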

Other observations

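Levels of Ifit1 and Rsad2 spread widely among the 9 DA isograft recipients, for which the labels give no further division. In recipients 9, 11, 12, 14, 16, 17, 18, 20 and 21, in that order, Ifit1 had 4.44, 3.73, 10.2, 4.3, 3.79, 10.3, 12.3, 9.13 and 7.49 array medians. Rsad2 had 40.9, 57.1, 99.4, 40.2, 38.4, 90.3, 127, 105 and 111 in the same order. Ifit3, of the same family as Ifit1, had 8.17, 6.46, 5.12, 7.19, 8.69, 2.65, 4.89, 6.41 and 4.48. No value of Ifit1 lay between 4.44 and 7.49 and none of Rsad2 between 57.1 and 90.3, whereas Ifit3 had its lowest level in recipient 17 and its highest in recipient 16. Rsad2 lay between 1.43 and 10.1 in the 6 untransplanted rats, below every recipient, and these were processed in another batch. The red cell markers followed the same recipients. In the order above, Alas2, the first enzyme of heme synthesis in red cells, had 29.7, 40.1, 97.6, 29.2, 26.4, 89.4, 117, 95.2 and 79.2 array medians. Slc4a1, the anion exchanger of the red cell membrane, had 22.6, 27, 76.6, 21.6, 13.5, 73.4, 110.0, 75 and 69.5. Recipients 12, 17, 18, 20 and 21 had the 5 highest levels of Ifit1, Rsad2, Alas2 and Slc4a1 alike. They also had the 5 highest of Cmpk2, at 8.07 to 11.5 array medians against 5.26 to 6.79 in the other isograft recipients. The same held for Isg20, at 3.62 to 4.57 against 2.33 to 3.21. In the 6 untransplanted rats Alas2 lay between 0.787 and 5.65 and Slc4a1 between 0.52 and 2.19, also below every recipient. These patterns were noticed in the values, and the part of red cells in the levels of Ifit1, Rsad2, Cmpk2 and Isg20 was not tested.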
